A study of Homo sapiens with 12 samples.

Results

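Histones are the proteins around which DNA is wound: H2A, H2B, H3 and H4 form the core of the nucleosome, and H1 binds the linker between nucleosomes. Expression of the histone genes was followed across 12 RNA-seq libraries of 2 human colon cancer lines. Genes were taken by symbol from both deposited tables: every HIST1H, HIST2H, HIST3H or HIST4H gene and 9 variant histones outside those clusters, with at least 1 TPM (a level per gene length, scaled so that each library sums to 1000000) in at least 3 of the 12 libraries. Of 83 genes that matched by symbol, 62 met this level, out of 25540 genes in both tables. They comprised 54 HIST genes, which carry the names of the replication-dependent clusters (4 of family H1, 13 of H2A, 17 of H2B, 9 of H3 and 11 of H4), and 8 variant histones. Members were chosen by symbol and by their level, the one measured value the rule used, and 61 of the 62 reached it in every library, with HIST1H2BB as the exception.

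Replication-dependent histone genes lie in clusters, mostly lack introns and are transcribed at the start of S phase, when the factor NPAT is activated. Their mRNAs end in a conserved stem-loop in place of a poly(A) tail. The stem-loop binding protein SLBP and the U7 snRNP, with LSM10, LSM11 and ZNF473, direct the cut that makes this end, and the mRNAs are destroyed when replication stops. Variant histones such as H2AFZ, H2AFX, H3F3B and H1F0 are mostly encoded by single genes with polyadenylated mRNAs, and are made outside S phase as well.

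The parental line was LS411N, from a BRAF-mutant colon carcinoma. From it came LS411N-BR, selected for growth under BRAF inhibition. Both carried a hairpin RNA (shRNA) against the mucin MUC1 that doxycycline switches on. Cultures received 500 ng/ml doxycycline or the DMSO vehicle alone, in triplicate, and LS411N-BR was kept in 4 µM of a BRAF inhibitor in both arms. The 4 groups of 3 libraries are called LS411N without and with doxycycline and LS411N-BR without and with doxycycline. No doxycycline-treated library without the hairpin was analysed here, so an effect of doxycycline itself and one of the hairpin cannot be told apart, and neither can the line and the inhibitor. The sources used here do not say whether the triplicates were separate cultures, so p-values rest on the spread between these libraries. In LS411N-BR that spread was set almost wholly by genes of like level, so a gene's own spread between libraries hardly enters its SE or p-value.

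MUC1, the targeted gene, stood at 4.64, 6.10 and 4.54 TPM in LS411N without doxycycline and at 0.986, 0.814 and 0.967 TPM with it. In LS411N-BR it stood at 3.69, 3.94 and 4.27 TPM and at 0.699, 0.388 and 0.440 TPM. It fell in both lines (log2 fold change -1.66 ± 0.13 SE, adjusted p = 3.5e-14, and -1.72 ± 0.08 SE, adjusted p = 5e-108, limma).

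Depth is unknown, since the tables hold only TPM. Short RNA genes took between 39.6 and 54.3% of the TPM of a library, and RN7SK, a nuclear RNA without a poly(A) tail, took between 139642 and 253325 TPM. One untreated LS411N library, replicate 3, differed from the others of its group, with 39.6% of its TPM in short RNA genes against 51.0 and 52.4% in replicates 1 and 2, and and with the TPM of all tested genes at a median of 1.31 times the mean of those replicates. The median ratio was 1.26 for HIST genes, from 1.08 for H1 to 1.53 for H2A genes. Each result is given on the TPM as deposited and, where the count or call moved, after median-of-ratios rescaling, which divides each library by the median ratio of its genes to their geometric mean over the libraries. Colon epithelial markers were present in both lines: KRT8, a simple epithelial keratin, stood between 579 and 1289 TPM and CDH17, an intestinal cadherin, between 64.9 and 364 TPM, while of 12 markers of stromal, endothelial and immune cells only CD68 reached the level tested, and vimentin stayed at or under 0.244 TPM.

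The 3-prime ends carry the feature that sets the 2 classes apart in sequence. In GENCODE 29 transcripts, 26 of the 54 HIST genes are annotated at least 50 bases past the stop codon, and 23 of these 26 hold the stem-loop pattern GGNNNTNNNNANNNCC, with a paired stem of 6 bases around a loop of 4, within 150 bases of it. A further 26 coding HIST genes are annotated with no base past the stop codon, so their annotation cannot show it, and the pseudogene HIST2H2BC has no annotated stop codon. HIST1H4J, annotated 44 bases past the stop codon, holds the pattern as well, so that 24 of the 54 HIST genes held it. Of the variants, only H2AFX, a variant whose gene is known to make both a stem-loop and a polyadenylated mRNA, held it (1 of 8). By the same search, 0.458% of 19669 genes with a protein-coding transcript held it in that window, and 0.473% of the 18805 annotated at least 50 bases past the stop codon. The sites below are from members named in the results and show how little they differ, with the stem and loop in capitals, in GRCh38:
HIST1H2AE, chr6:26217412-26217437, plus strand: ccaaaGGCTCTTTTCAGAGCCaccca
HIST1H2BG, chr6:26216213-26216238, minus strand: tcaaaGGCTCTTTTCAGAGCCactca
HIST1H4E, chr6:26204996-26205021, plus strand: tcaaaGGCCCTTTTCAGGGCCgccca
HIST1H3E, chr6:26225591-26225616, plus strand: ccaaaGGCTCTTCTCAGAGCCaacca
H2AFX, chr11:119094893-119094918, minus strand: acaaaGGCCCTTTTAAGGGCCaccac

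Promoters were compared in the RefSeq table on GRCh38.p14, which matched 48 of the 54 HIST genes and 7 of the 8 variants, over the 250 bases before the start and on both strands. The TATA box letters TATAAA were present in 72.9% of the HIST genes against 13.1% of 27305 promoters in the table. CCAAT was present in 85.4% against 37% (all 12 H2A, 16 H2B and 7 H3 genes, but 2 of 9 H4 genes). The octamer ATTTGCAT, the site of the POU factor OCT1, was present in 45.8% against 2.03% (9 of 12 H2A and 12 of 16 H2B genes). Of the 7 variants matched, 57.1% held TATAAA, 85.7% CCAAT and 14.3% the octamer. A match describes letters and is not a measured site. Matches were counted anywhere in the 250 bases, and genes that point apart can share 1 match that is counted for both. The octamer of HIST1H2AE, at -192 from its start, is that of HIST1H2BG, at -48 from its own. In some genes TATAAA lay only far from the start, at -206 in HIST1H2AE and -250 in HIST4H4. The 120 bases before the start are shown for 4 HIST genes called lower in both lines and for H2AFJ, called higher in both, with matches to these motifs in capitals on either strand (ATTGG is CCAAT on the other strand):
HIST1H2BG, chr6:26216689-26216808, minus strand: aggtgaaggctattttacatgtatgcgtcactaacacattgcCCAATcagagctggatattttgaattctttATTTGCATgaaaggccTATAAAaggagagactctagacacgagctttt
HIST1H2AE, chr6:26216801-26216920, plus strand: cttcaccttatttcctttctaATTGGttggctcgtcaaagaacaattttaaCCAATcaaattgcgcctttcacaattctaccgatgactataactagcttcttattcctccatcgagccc
HIST1H4L, chr6:27873535-27873654, minus strand: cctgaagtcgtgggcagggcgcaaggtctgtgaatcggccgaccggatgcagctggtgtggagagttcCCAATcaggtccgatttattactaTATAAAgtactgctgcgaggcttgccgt
HIST1H4D, chr6:26189113-26189232, minus strand: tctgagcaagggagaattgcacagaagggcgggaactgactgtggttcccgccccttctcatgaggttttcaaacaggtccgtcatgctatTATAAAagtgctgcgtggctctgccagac
H2AFJ, chr12:14774285-14774404, plus strand: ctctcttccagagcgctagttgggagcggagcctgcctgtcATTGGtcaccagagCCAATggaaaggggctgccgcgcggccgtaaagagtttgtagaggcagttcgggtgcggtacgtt

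Levels of the HIST genes were high in every library, although the TruSeq Stranded mRNA kit captures polyadenylated RNA. In LS411N without doxycycline the median HIST gene stood at 510 TPM, 47 of the 54 exceeded 100 TPM and 10 exceeded 1000 TPM. In LS411N-BR without doxycycline the median was 478 TPM. The 10 genes with the highest levels held 49.1% of the summed HIST level in LS411N and 49.3% in LS411N-BR, so the level was spread over many copies. Variants stood lower, between 4.23 TPM (H2AFJ) and 615 TPM (H2AFZ) in LS411N. Whether the HIST level comes from polyadenylated or stem-loop mRNA was not tested.

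Some genes sit at the edge of what the tables can separate. The symbols HIST2H2AA3, HIST2H2AA4, HIST2H3A, HIST2H3C, HIST2H4A, HIST2H4B, HIST1H4G, HIST1H2APS1 and H3F3A are listed at 0 in every library. Among the members, 10 share at least 50% of their 50-base transcript windows with another annotated gene, HIST1H4K and HIST1H3D all of them. Values of such genes, among them HIST1H4K, HIST1H4J, HIST1H2AJ, HIST1H2AI, HIST1H2AM, HIST1H2BK and HIST2H3D, depend on how shared reads were assigned and are uncertain. At the level threshold, HIST1H2AD just outside had a third-highest value of 0.774 TPM, and HIST1H2BB just inside one of 1.65 TPM.

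With doxycycline, HIST genes were lower in LS411N-BR across all families. Of 53 tested, 52 were called lower and 1 higher at a Benjamini-Hochberg adjusted p under 0.05 (limma on log2(TPM + 1)), against 11.1% of the 11322 tested genes called lower and 56.1% called higher. The median log2 fold change of the HIST genes was -0.76, with 0.18 over all tested genes. In 49 of the 54 every doxycycline library lay below every library without it, which held for 12.1% of all tested genes. After median-of-ratios rescaling 51 were called lower and 0 higher, with 0 higher at an unadjusted p under 0.05 as well. The rescaled background was 32.2% lower and 32.3% higher, and the rescaled median of the HIST genes -0.97.

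**Figure D1:**
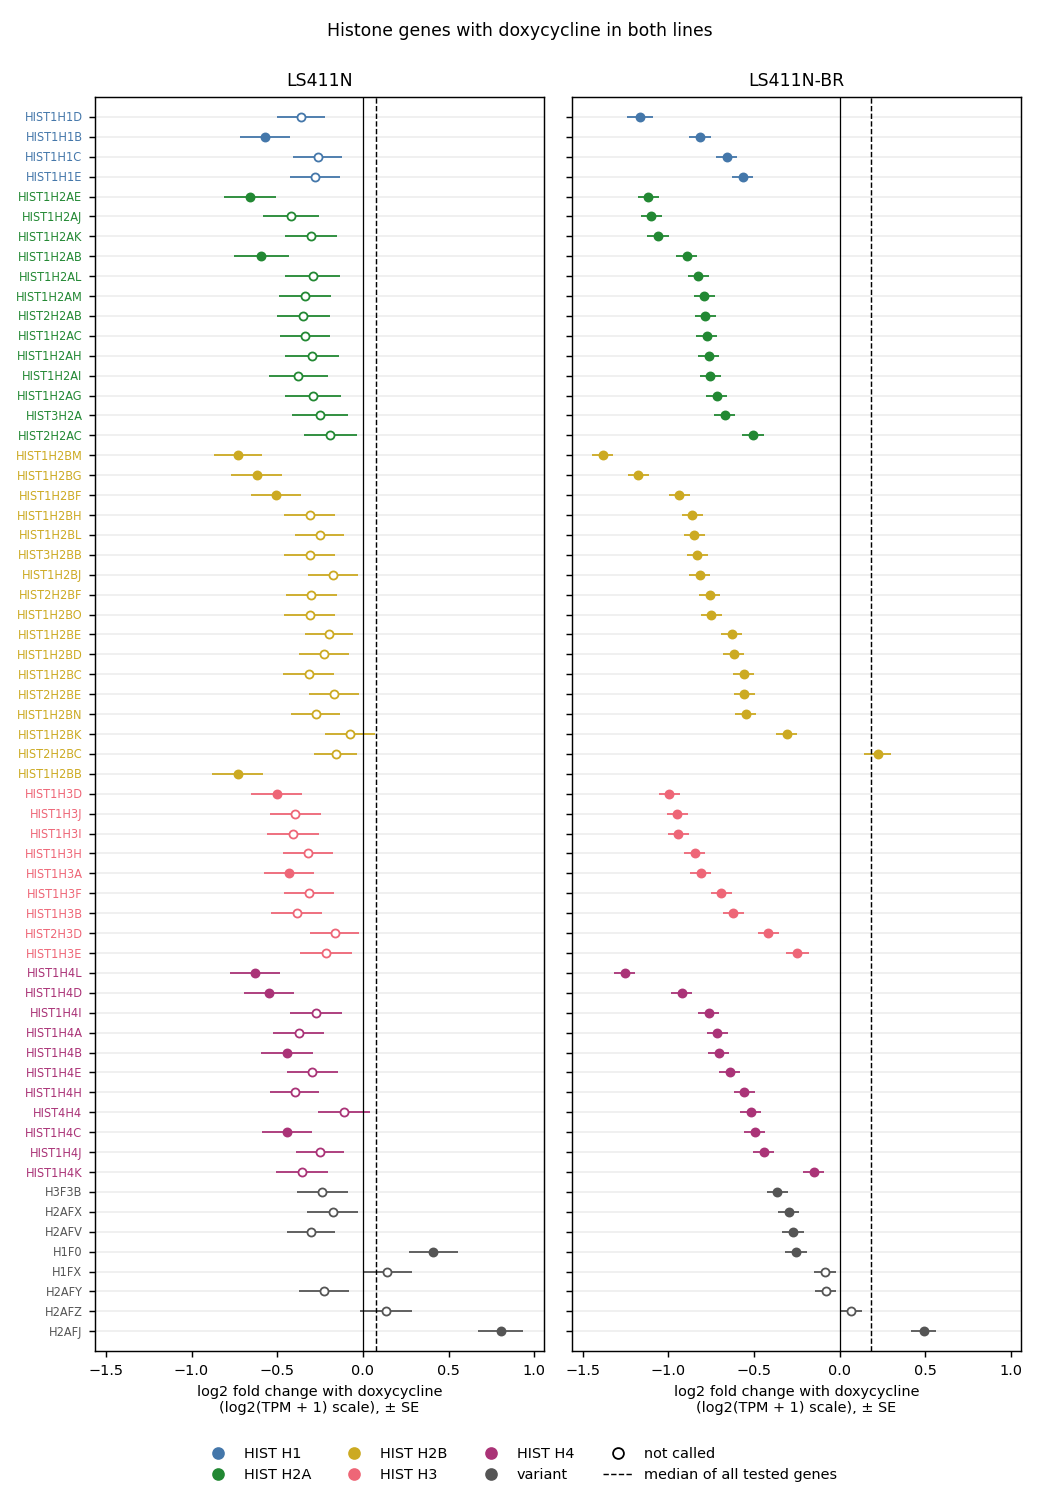
Log2 fold change with doxycycline (x axis, log2(TPM + 1) scale, bars are SE) of each histone gene (y axis, coloured by family) in LS411N (left) and LS411N-BR (right), filled where the adjusted p was under 0.05. All but HIST2H2BC of the HIST genes tested in LS411N-BR lie left of 0, while the variants lie on both sides, and the dashed line is the median of all tested genes.

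Among linker histones, HIST1H1D fell furthest. It stood at 4.82, 4.995 and 4.23 TPM without doxycycline and at 1.80, 1.46 and 1.35 TPM with it (log2 -1.16 ± 0.07 SE, adjusted p = 3.1e-53, limma). HIST1H1B, the linker gene with the highest mean level over the groups, fell from 1909, 1899 and 1805 TPM to 1096, 1018 and 1074 TPM (log2 -0.82 ± 0.06 SE). The groups did not overlap for any of the 4 linker genes.

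The H2B gene HIST1H2BM had the most negative log2 fold change of the members in LS411N-BR on the log2(TPM + 1) scale, while by the ratio of mean TPM the low HIST1H1D fell further (-67.2%). Its 3 libraries without doxycycline held 228, 229 and 218 TPM, and those with it 92.9, 75.7 and 89.4 TPM, a change of the mean by -61.8% (log2 -1.38 ± 0.06 SE, adjusted p = 1.2e-107, limma). HIST1H2BG fell from 405, 406 and 402 TPM to 197, 165 and 174 TPM (log2 -1.18). HIST1H2BF fell by 0.94 on the log2 scale. HIST1H2BC, the H2B gene with the highest level, fell less, from 2810, 2834 and 2746 TPM to 1962, 1811 and 1922 TPM (log2 -0.56 ± 0.06 SE). The smallest called fall of an H2B gene was that of HIST1H2BK, at -0.31. HIST2H2BC, annotated as a transcribed pseudogene, was the one HIST symbol called higher, at 1.51, 1.68 and 1.19 TPM without and 1.83, 1.92 and 1.83 TPM with doxycycline (log2 0.22, adjusted p = 0.0076). That call was lost after median-of-ratios rescaling (log2 0.09, adjusted p = 0.28), and without replicate 3 of LS411N-BR without doxycycline (log2 0.14, adjusted p = 0.18). HIST1H2BB did not reach the level tested in this line.

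All 13 H2A genes fell in LS411N-BR, from -1.12 for HIST1H2AE to -0.51 for HIST2H2AC, the H2A gene with the highest level. HIST1H2AE went from 454, 474 and 451 TPM to 220, 196 and 218 TPM. HIST1H2AJ fell by 1.10 and HIST1H2AK by 1.06 on the log2 scale.

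The 9 H3 genes fell as well, with HIST1H3D (-0.99), HIST1H3J (-0.95) and HIST1H3I (-0.94) first. HIST1H3B, the H3 gene with the highest level, went from 1803, 1863 and 1904 TPM to 1209, 1140 and 1273 TPM (log2 -0.62 ± 0.06 SE). HIST1H3E had the smallest change of the family (-0.25, adjusted p = 4.1e-04), and its groups overlapped.

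The 11 H4 genes were all called lower, from -1.26 to -0.15. HIST1H4L fell from 445, 414 and 439 TPM to 213, 155 and 178 TPM (log2 -1.26 ± 0.06 SE, adjusted p = 1.3e-90, limma). HIST1H4D, at 2703, 2709 and 2762 TPM without doxycycline, fell to 1447, 1356 and 1516 TPM (log2 -0.92). HIST1H4K was the weakest, at 1628, 1296 and 1784 TPM without and 1941, 1227 and 1150 TPM with doxycycline, and its groups overlapped. Its call (log2 -0.15, adjusted p = 0.021) was lost after rescaling (log2 -0.36, adjusted p = 0.096). HIST1H4J, which shares 81.2% of its windows with HIST1H4K, also had overlapping groups, with 159 TPM in replicate 1 with doxycycline against 90.5 and 92.0 TPM in the others.

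**Figure D2:**
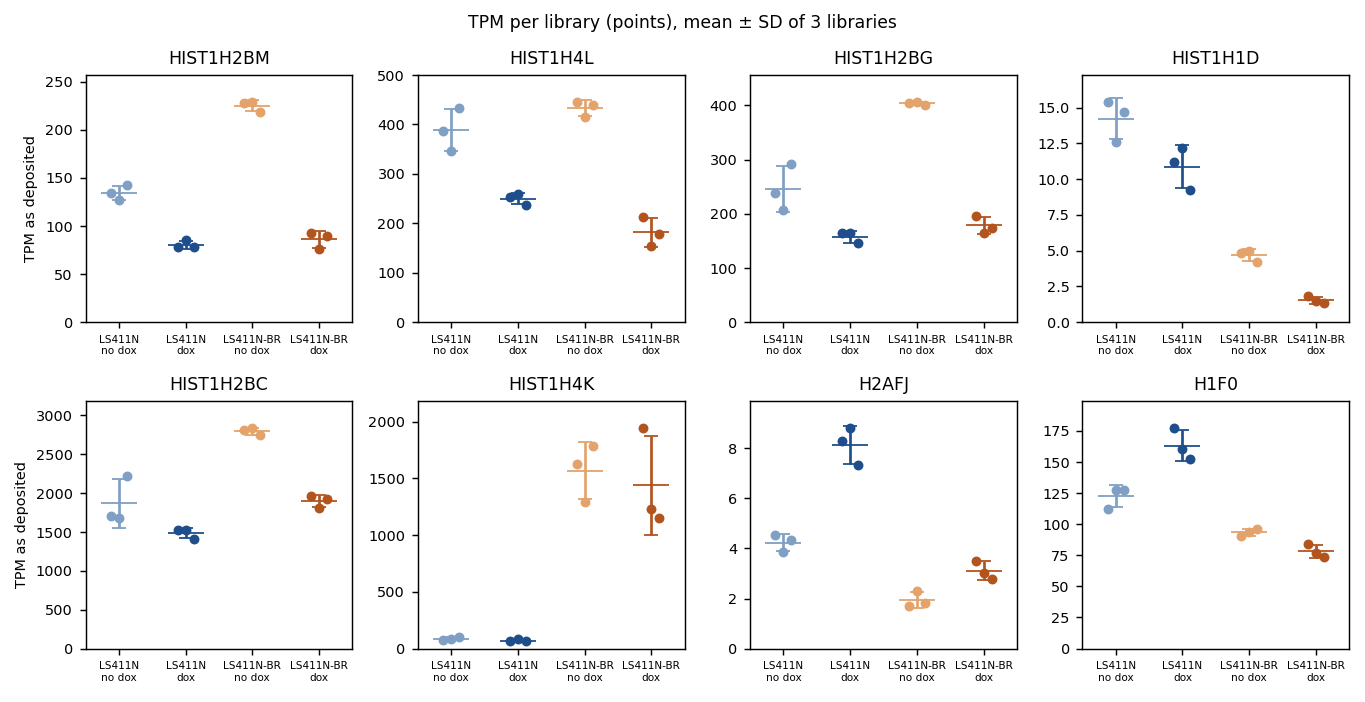
TPM as deposited (y axis, from 0) of 8 histone genes in each library (points) of the 4 groups (x axis), with mean ± SD of 3 libraries. HIST1H2BM, HIST1H4L, HIST1H2BG and HIST1H1D separate with doxycycline in LS411N-BR, HIST1H4K does not, and H2AFJ rises in both lines.

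In LS411N the same direction was seen with smaller size. All 54 HIST genes had a negative log2 fold change (median -0.32, with 0.08 over all tested genes), and in 40 of them every doxycycline library lay below every library without it, against 9.61% of all 11281 tested genes. On the TPM as deposited, 13 were called lower and 0 higher (limma), against 3.43% of all tested genes called lower and 9.75% called higher, and at an unadjusted p under 0.05 the counts were 32 lower and 0 higher. After rescaling, 45 were called lower and 0 higher, 12 of them among the 13, with a background of 16% lower and 18.8% higher. Of the 13, 12 were also called lower in LS411N-BR. The other, HIST1H2BB, was not tested there. In LS411N it reached 1 TPM in all 3 untreated libraries and in 1 with doxycycline. It thus passed the filter through the group where it is high, which favours a lower value with doxycycline, and its call supports nothing.

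The 13 were HIST1H1B, HIST1H2AB, HIST1H2AE, HIST1H2BB, HIST1H2BF, HIST1H2BG, HIST1H2BM, HIST1H3A, HIST1H3D, HIST1H4B, HIST1H4C, HIST1H4D and HIST1H4L, all from the large cluster on chromosome 6. HIST1H2BM stood at 134, 127 and 142 TPM without and at 77.9, 85.3 and 78.4 TPM with doxycycline (log2 -0.73 ± 0.14 SE, adjusted p = 1.7e-04, limma). HIST1H2AE went from 434, 408 and 602 TPM to 302, 311 and 287 TPM (log2 -0.66 ± 0.15 SE, adjusted p = 0.0016). HIST1H4L went from 386, 347 and 432 TPM to 254, 258 and 237 TPM (log2 -0.63, adjusted p = 0.0015). In these 3 genes the groups did not overlap, and the libraries with doxycycline spread less than those without.

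HIST1H1B fell from 2038, 1929 and 2199 TPM to 1563, 1357 and 1242 TPM (log2 -0.57 ± 0.15 SE, adjusted p = 0.0047). HIST1H4D fell by 0.55, HIST1H2BF by 0.51 and HIST1H3D by 0.50 on the log2 scale. HIST1H2BB stood at only 1.65, 2.10 and 1.87 TPM without and 0.829, 1.47 and 0.141 TPM with doxycycline. HIST1H4B was lower in replicate 3 than in the other untreated libraries, at 1621, 1630 and 1208 TPM without doxycycline, and its call (log2 -0.44, adjusted p = 0.040) was lost after rescaling, with a larger fold (log2 -0.52, adjusted p = 0.068).

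These calls depended on single libraries. The count of HIST genes called lower was 1 without doxycycline replicate 3 (HIST1H2BM kept its call), 6 without doxycycline replicate 2 and 31 without replicate 3 of the untreated group. In that last fit 50 of the 54 were negative, HIST2H2AC being at 0.01. With the untreated replicate 3 left out and the libraries rescaled, an alternative chosen after seeing the data, 52 were called lower.

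Summed over the 54 genes and set against the TPM outside short RNA genes, the HIST share was tight within groups and separated by doxycycline. In LS411N it was 6.78, 6.72 and 6.77% without and 5.29, 5.23 and 5.08% with doxycycline, so that replicate 3 of the untreated group did not stand apart on this measure. In LS411N-BR it was 8.68, 8.32 and 8.42% without and 4.88, 4.73 and 4.90% with doxycycline. The mean decrease was 23.1% in LS411N and 42.9% in LS411N-BR, and the groups did not overlap in either line. Every family sum moved alike: in LS411N-BR the decrease in summed TPM ranged from 35.9% (H4) to 40.0% (H3), and in LS411N from 18.5% (H2B) to 23.4% (H4). In bulk RNA, fewer cells in S phase and less histone mRNA per cell cannot be told apart.

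**Figure D3:**
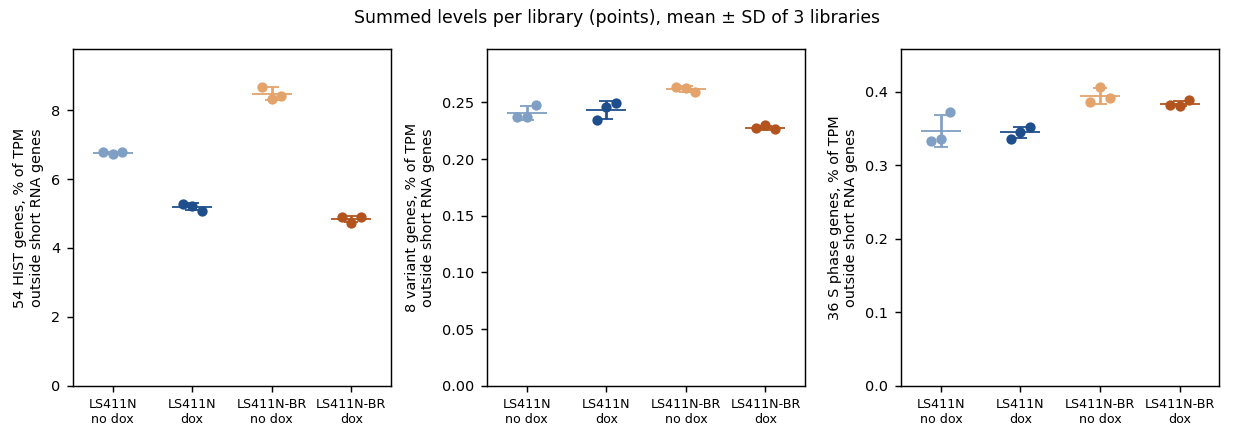
Summed level as a percentage of the TPM outside short RNA genes (y axes, from 0) of the 54 HIST genes, the 8 variants and the 36 S phase genes, per library (points) with mean ± SD of 3 libraries in the 4 groups (x axes). The HIST share is lower with doxycycline in both lines, without overlap, and the S phase groups overlap in both lines.

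Variant histones were called in both directions. In LS411N-BR 4 of the 8 were called lower and 1 higher on the TPM as deposited, with 11.1% and 56.1% over all tested genes, and 7 lower and 1 higher after rescaling, with 32.2% and 32.3%. In LS411N 0 were called lower (1 at an unadjusted p under 0.05, limma) and 2 higher (4 lower and 2 higher after rescaling), with 3.43% lower and 9.75% higher over all tested genes (16% and 18.8% after rescaling). Their summed share of TPM outside short RNA genes was 0.241% ± 0.006 (SD, n = 3) without and 0.243% ± 0.008 with doxycycline in LS411N, with overlapping groups. In LS411N-BR it was 0.262% ± 0.002 and 0.228% ± 0.002, a decrease of 13.1%. The ratio of summed HIST to summed variant TPM went from 28.6, 28.3 and 27.3 to 22.5, 21.3 and 20.3 in LS411N, and from 32.9, 31.6 and 32.5 to 21.5, 20.6 and 21.7 in LS411N-BR. It does not depend on the scaling of the libraries.

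H2AFJ, an H2A variant that has been linked to cell senescence, rose in both lines. It stood at 4.52, 3.85 and 4.32 TPM without and at 8.31, 8.80 and 7.32 TPM with doxycycline in LS411N (log2 0.80 ± 0.13 SE, adjusted p = 1.2e-05, limma). In LS411N-BR it stood at 1.69, 2.29 and 1.81 TPM and at 3.52, 3.01 and 2.78 TPM (log2 0.49 ± 0.08 SE, adjusted p = 4e-10). Both calls were kept after rescaling.

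H1F0, the linker variant that accumulates in differentiated cells, moved in opposite directions in the lines. In LS411N it stood at 112, 128 and 128 TPM without and 177, 160 and 153 TPM with doxycycline (log2 0.41 ± 0.14 SE, adjusted p = 0.048). That call was lost when any library but the untreated replicate 3 was left out (adjusted p up to 0.35). In LS411N-BR it stood at 90.5, 93.7 and 96.0 TPM without and 83.8, 76.7 and 74.0 TPM with doxycycline (log2 -0.25 ± 0.06 SE, adjusted p = 1.1e-04).

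H3F3B, which encodes a replacement H3, fell in LS411N-BR (193, 205 and 199 TPM to 160, 145 and 158 TPM, log2 -0.37), as did H2AFX, phosphorylated at DNA breaks (log2 -0.30), and H2AFV, a form of H2A.Z (log2 -0.27). In LS411N their log2 fold changes were -0.24, -0.18 and -0.30, none called on the TPM as deposited and all called lower after rescaling. H2AFY, a macroH2A, had log2 fold changes of -0.23 in LS411N and -0.08 in LS411N-BR, and H1FX 0.14 and -0.08. Neither was called as deposited, and after rescaling H2AFY was called lower in both lines and H1FX lower in LS411N-BR (log2 -0.29). The sign of H2AFZ, the most abundant variant, depended on the scaling in LS411N-BR, at 0.07 as deposited and -0.14 after rescaling.

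Whether doxycycline acted on a gene to a different extent in LS411N-BR was tested as the interaction in a limma fit over all 12 libraries. On the TPM as deposited 7 HIST genes and H1F0 had a more negative effect in LS411N-BR, and 0 members a more positive one (2 HIST genes at an unadjusted p under 0.05), against 0.728% of 11674 tested genes called more negative and 1.39% more positive. The median difference of the HIST genes was -0.41, with 0.11 over all tested genes. After rescaling 41 of 54 HIST genes and 3 variants were called, with a background of 5.8% more negative and 4.37% more positive, and the 7 were among the 41. Without replicate 3 of LS411N without doxycycline, 42 HIST genes were called on the TPM as deposited, and without replicate 2 of LS411N with doxycycline, 2. Without replicate 1, 2 or 3 of LS411N-BR without doxycycline the count was 3, 4 and 4, and without replicate 2 of LS411N-BR with doxycycline it was 3.

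HIST1H1D had the largest difference, at -0.80 ± 0.15 SE (adjusted p = 0.0041), followed by HIST1H2AK at -0.76 ± 0.17 SE (adjusted p = 0.016). H1F0 differed by -0.67 ± 0.14 SE (adjusted p = 0.0075), HIST1H2BM by -0.65 (adjusted p = 0.0098), HIST1H2BJ by -0.64 (adjusted p = 0.0069) and HIST1H2BL by -0.60 (adjusted p = 0.014). HIST1H4L and HIST1H3H completed the called members. HIST1H2BJ went from 670, 632 and 654 TPM to 622, 589 and 525 TPM in LS411N (not called) and from 902, 890 and 856 TPM to 496, 479 and 527 TPM in LS411N-BR.

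Levels of the lines without doxycycline are set side by side, without a test, after rescaling every library to 1000000 over the genes of both tables without short RNA genes. Of 54 HIST genes, 27 had all LS411N-BR libraries above all LS411N libraries, 21 had them below and 6 overlapped. The same share over all genes was not taken, so these counts describe the members and are no result about them as a group. Over all shared genes, short RNA genes included, the counts were 15, 25 and 14, so the split depended on the scale. Of the H1 genes 3 of 4 were lower in LS411N-BR (median ratio 0.551), and of the H3 genes 7 of 9 were higher (median ratio 1.90). With short RNA genes included, 4 of 4 H1 genes were lower (median ratio 0.445) and 5 of 9 H3 genes higher (median ratio 1.52). For these families too, no share over all genes was taken. Single copies differed by far more than the families. HIST1H4K stood at 193 ± 7.08 TPM (SD, n = 3) in LS411N and 3383 ± 596 TPM in LS411N-BR on this scale, 17.6 times as high. HIST1H4K shares 100% of its windows with HIST1H4J, so its values depend on how shared reads were assigned in each table and are uncertain. HIST1H4E stood at 6557 ± 324 and 1439 ± 42.9 TPM, 4.56 times lower. HIST4H4, on chromosome 12, was 3.35 times lower in LS411N-BR, HIST1H1D 3.13 times lower and HIST1H3J 3.62 times higher. H2AFJ was 2.27 times lower.

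**Figure D4:**
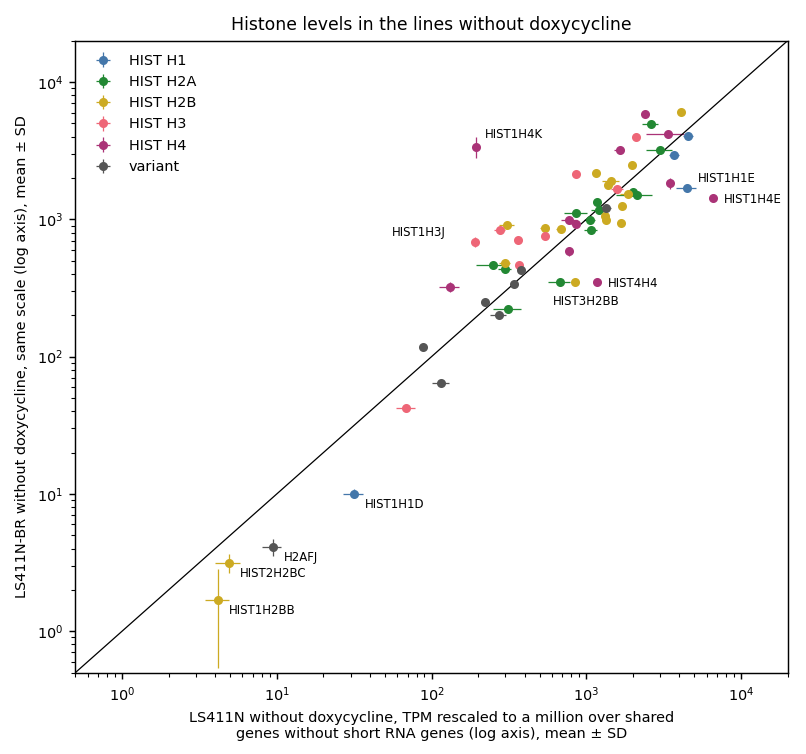
Mean level ± SD (3 libraries) of each histone gene in LS411N (x axis) and LS411N-BR (y axis) without doxycycline, as TPM rescaled to 1000000 over shared genes without short RNA genes, on log axes, with the line of equality. Most genes lie near the line, HIST1H4K far above it and HIST1H4E, HIST4H4 and HIST1H1D below it. The level of HIST1H4K is uncertain, since all its windows are shared with HIST1H4J.

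Members shared position as well as letters. Of the 54 HIST genes 45 belong to the HIST1 cluster on chromosome 6, with a median log2 fold change of -0.77 in LS411N-BR. The 6 of the HIST2 group on chromosome 1 had a median of -0.53. By the ends of their annotated gene spans, members formed 10 pairs that start within 1000 bases of each other and point apart. Most were an H2A and an H2B gene, with HIST1H2BO in more than one pair. HIST1H3J is paired with HIST1H2BO through a span that runs past its shortest transcript of 411 bases. The 2 genes of a pair differed in log2 fold change by a median of 0.13 in LS411N-BR, from 0.04 to 0.45. The same gap between HIST genes that are not paired was not taken, so these values are no result about pairs. The annotated spans of HIST1H2BG and HIST1H2AE are 282 bases apart. Their promoters printed above are placed by RefSeq starts, which differ from the span ends, and overlap at their far ends. These 2 genes fell by 1.18 and 1.12, and HIST1H2AJ and HIST1H2BM, with spans 303 bases apart, by 1.10 and 1.38. Of the 10 pairs, that of HIST1H2BK and HIST1H2AH differed most, at -0.31 and -0.76. HIST1H2AK and HIST1H2BN also point apart by their RefSeq starts, but their annotated spans overlap and they were not counted. They had log2 fold changes of -1.06 and -0.55 in LS411N-BR, further apart than any pair counted. HIST genes annotated at least 50 bases past the stop codon and coding ones with no such base had median log2 fold changes of -0.71 and -0.81 in LS411N-BR and of -0.30 and -0.37 in LS411N.

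Other genes of the histone pathway were set beside the share of all tested genes called. In LS411N-BR it was 11.1% lower and 56.1% higher as deposited and 32.2% and 32.3% after rescaling. In LS411N it was 3.43% lower and 9.75% higher as deposited and 16% and 18.8% after rescaling. Counts near these shares are no result about a list. Of 26 genes for its transcription and 3-prime processing, 0 were called in LS411N (0 at an unadjusted p under 0.05, limma; 4 lower and 0 higher after rescaling), and 3 lower and 13 higher in LS411N-BR (10 lower and 5 higher after rescaling). The counts in LS411N-BR as deposited are near the share of all genes. The median log2 fold change was 0.00 and 0.14 as deposited. SLBP, which binds the stem-loop, stood at 52.6, 56.2 and 53.99 TPM without and 59.2, 56.6 and 60.0 TPM with doxycycline in LS411N-BR (log2 0.11, adjusted p = 0.12), and after rescaling its sign turned and it was called lower (log2 -0.10, adjusted p = 0.020). LSM10 rose there from 15.3, 16.04 and 14.4 to 24.1, 22.8 and 22.8 TPM (log2 0.58 ± 0.07 SE), and ZNF473 by 0.40 and the core snRNP protein gene SNRPD3 by 0.29 on the log2 scale. All 3 kept their calls after rescaling, at 0.38, 0.20 and 0.08.

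The balance of calls among S phase and replication genes depended on the scale. Their median lay below that of all tested genes on both scales, in both lines. Of 36, 0 were called in LS411N (0 lower and 3 higher at an unadjusted p under 0.05, limma). After rescaling 10 were called lower and 3 higher there, beside 16% and 18.8% of all genes. In LS411N-BR 4 were called lower and 13 higher on the TPM as deposited, and 22 lower and 1 higher after rescaling. The share of all genes was 11.1% lower and 56.1% higher as deposited, and 32.2% and 32.3% after rescaling. The median in LS411N-BR was 0.05 as deposited and -0.15 after rescaling, with 0.18 and -0.0018 over all tested genes. The list ranged there from -0.34 to 0.31 as deposited. In LS411N the median was 0.0009 and -0.07, with 0.08 and 0.01 over all tested genes. Their summed share of TPM outside short RNA genes was 0.394% ± 0.011 (SD, n = 3) without and 0.384% ± 0.004 with doxycycline in LS411N-BR, with overlapping groups. PRIM1, a primase subunit, fell (log2 -0.34), while GINS1 (0.31) and MCM10 (0.31), of the helicase assembly, were called higher as deposited, and after rescaling GINS1 lost its call (adjusted p = 0.10).

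Of 30 histone chaperones and exchange factors, 5 were called lower and 13 higher in LS411N-BR (14 lower and 1 higher after rescaling), beside 11.1% and 56.1% of all genes (32.2% and 32.3%). In LS411N 0 were called lower and 1 higher (12 lower and 3 higher after rescaling), beside 3.43% and 9.75% of all genes (16% and 18.8%). CHAF1B, a subunit of the chaperone that deposits histones at forks, fell in LS411N-BR (log2 -0.31), SPTY2D1, an H3-H4 chaperone, rose (0.38), and ZNHIT1, of the complex that exchanges in H2A.Z, was called higher in both lines (0.42 and 0.37), though not in LS411N-BR after rescaling (adjusted p = 0.075). Of 17 histone acetyltransferases and deacetylases, 1 was called higher in LS411N and 2 lower and 11 higher in LS411N-BR (3 lower and 2 higher, and 4 lower and 2 higher, after rescaling), and the deposited counts in LS411N-BR are near the share of all genes. KAT2B, an acetyltransferase, rose in both (0.45 and 0.50), and HDAC8 (0.31) and KAT6A (0.25) were called higher in LS411N-BR, KAT6A not after rescaling (adjusted p = 0.25). Of 3 tested histone variants outside the rule, the centromeric CENPA fell in LS411N-BR (log2 -0.18) and H2AFY2, a macroH2A, was called higher (0.25), which was lost after rescaling (adjusted p = 0.28).

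Other RNAs without a poly(A) tail were called in both directions. Of 8 tested in LS411N-BR, 3 were called lower and 3 higher (11.1% and 56.1% of all genes), and 3 lower and 1 higher after rescaling (32.2% and 32.3%). The median log2 fold change there was -0.10 and -0.31 after rescaling, with 0.18 and -0.0018 over all tested genes. Of 14 in LS411N, 2 were called lower and 1 higher (3.43% and 9.75%), and 2 lower and 2 higher after rescaling (16% and 18.8%). Their median was 0.07 and -0.005 after rescaling, with 0.08 and 0.01 over all tested genes. The part of these RNAs in the HIST result was not tested. SCARNA2, a Cajal body RNA, fell from 670, 708 and 650 to 465, 434 and 477 TPM in LS411N-BR (log2 -0.56) and from 683, 671 and 744 to 500, 515 and 515 TPM in LS411N (log2 -0.45, adjusted p = 0.026). SCARNA10 fell in LS411N-BR (log2 -0.52) and SCARNA7 rose there (log2 0.64). RN7SK was not called in either line (log2 -0.12 and -0.11). The share of TPM in short RNA genes went from 53.5% ± 1.03 (SD, n = 3) to 49.7% ± 2.10 in LS411N-BR without overlap, and overlapped in LS411N. Of the colon epithelial markers, 4 of 8 tested were called higher in LS411N and 8 of 8 in LS411N-BR (5 and 5 after rescaling), among them KRT20, a keratin of differentiated colonocytes, from 23.3, 26.7 and 24.0 to 156, 139 and 138 TPM in LS411N-BR. CD68 rose in LS411N from 7.14, 7.27 and 8.30 to 20.3, 18.5 and 17.2 TPM and in LS411N-BR from 33.6, 34.7 and 36.2 to 72.8, 68.4 and 71.0 TPM. The summed level of the 12 stromal, endothelial and immune markers went from 7.95 ± 0.619 (SD, n = 3) to 19.1 ± 1.52 TPM and from 35.4 ± 1.34 to 71.5 ± 2.23 TPM, without overlap in either line, while the 11 markers other than CD68 stayed under the level tested. The part of these markers in the HIST result was not tested.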

How the data were processed

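RNA was sequenced in 12 libraries of LS411N and LS411N-BR, with the TruSeq Stranded mRNA kit, which is made to capture polyadenylated RNA. Even so, short RNA genes held between 39.6 and 54.3% of the TPM of a library. How much of the sequenced RNA was polyadenylated was not tested. The authors deposited 1 table of TPM values per line, with 3 libraries in each of 2 groups. Per the submitters' processing notes, STAR, DESeq2 and GRCh38 were used, with no role stated. The tool behind the TPM and its annotation were not given in the sources used here, so the assignment of reads shared by near-identical histone genes is unknown. Groups and replicates were taken from the labels. Values were tested as log2(TPM + 1) with limma 3.58.1 (R 4.3.3), with an intensity trend and two-sided tests, in genes that reached 1 TPM in 3 or more libraries of the fit, and p-values were adjusted by Benjamini-Hochberg over all tested genes at 0.05. Each line was fitted alone, since the tables were made separately, and the difference between the lines over all 12 libraries. In LS411N-BR the moderated spread was set almost wholly by the trend, so its p-values are very small. The script was tested on simulated data. In LS411N, LS411N-BR and the difference it found 46, 97 and 46% of 1.5-fold changes and 92, 98 and 93% of 2-fold changes. Of its calls 4.8, 7.1 and 6.1% were false. Small changes were thus found less often in LS411N, and counts of calls in the 2 lines are not on equal terms. Fold changes on this scale understate those of low genes.

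Named genes were MUC1, the variants, the highest-level HIST gene of each family, the members with the largest called changes in a line (up to 12 in a direction), those with the smallest adjusted p in the difference (up to 6) and up to 3 genes per list with the smallest adjusted p; other genes named, such as HIST1H2BK, HIST1H4J, HIST1H4K and SLBP, were chosen after their values were seen. The members and the 8 gene lists were chosen with earlier results of these data known. Alternatives were another pseudocount (0.1), filter, scaling, moderation and spread, a replicate block, and each library left out. Sequences are from RefSeq and GENCODE 29.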

Additional observations from a re-analysis of the deposited data

Results flagged for a closer look

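The effect of doxycycline differed between the lines, by the test of the difference itself in limma, for 6 named genes, each with a more negative effect in LS411N-BR. HIST1H1D had a difference of -0.80 on the log2 scale, HIST1H2BJ one of -0.64 and H1F0 one of -0.67, and these 3 kept their call with every library left out in turn (adjusted p up to 0.022, 0.037 and 0.043). H1F0 was the one whose effects had opposite signs. HIST1H2BM had a difference of -0.65 and lost its call when replicate 2 of doxycycline-treated LS411N was left out (adjusted p = 0.0501). HIST1H2BL, at -0.60, lost it without replicate 2 of LS411N with doxycycline, replicates 1 or 2 of LS411N-BR without it, or replicates 1 or 2 of LS411N-BR with it (adjusted p up to 0.068). HIST1H2AK, at -0.76, lost it without replicates 2 or 3 of LS411N with doxycycline, replicates 1 or 3 of LS411N-BR without it, or replicate 2 of LS411N-BR with it (adjusted p up to 0.068).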

How the results depend on the processing

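In LS411N 13 HIST genes were called lower, against 2 with no TPM filter, 45 after median-of-ratios rescaling, 42 and 39 after rescaling over protein-coding genes without histones and over shared genes without short RNA genes, 32 with the spread of all 12 libraries, and 1 to 31 with a library left out. With the median-of-ratios rescaling and untreated replicate 3 left out together, chosen after seeing the data, it was 52. The 0 HIST genes called higher stayed at 0 to 0 with a library left out. Variants called lower there (0) became 4 under each of the 3 rescalings and with the added alternative, 1 with the spread of all libraries, and 0 to 1 with a library left out. Variants called higher (2) became 1 with no filter and 1 to 3 with a library left out. In LS411N-BR the 52 lower HIST genes ranged from 51 to 52 and the 1 higher from 0 to 1 with a library left out. That 1 became 0 with no filter, a filter of 5 TPM, each rescaling and the spread of all libraries. The 4 lower variants became 7 after median-of-ratios and protein-coding rescaling, and the 1 higher variant 0 with the filter of 5 TPM, which H2AFJ does not reach. Median-of-ratios rescaling moved the median of all tested genes from 0.08 to 0.01 in LS411N and from 0.18 to 0.00 in LS411N-BR, and the LS411N-BR medians from -0.76 to -0.97 (HIST) and from -0.17 to -0.38 (variants). In the difference, 7 HIST genes became 41 under each rescaling, 45 with the added alternative and 2 to 42 with a library left out, and the 1 variant became 3, 2 (protein-coding) and 5 (added), and 1 to 2 with a library left out. H2AFZ in LS411N-BR reversed to -0.14, -0.10 and -0.0447 under the 3 rescalings, H1FX in LS411N to -0.0470 with the added alternative, SLBP in LS411N-BR from 0.11 to -0.10 after median-of-ratios rescaling, and HIST2H2AC in LS411N to 0.0148 without untreated replicate 3, in a range from -0.299 to 0.0148 with a library left out. The cause of these shifts was not tested. Depth is unknown and limits what low genes can show.

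Replicate numbers did not pair the libraries: same-numbered libraries correlated at 0.0294, 0.00622 and 0.173 in LS411N and at 0.023, 0.00307 and 0.00837 in LS411N-BR, and not every library correlated best with its own number. With the replicate block, 6 HIST genes were called lower and 1 variant higher in LS411N, and 1 HIST gene more positive in the difference.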
